A study of Mus musculus with 41 samples.

Results

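Cytosolic ribosomal protein genes encode the protein part of the ribosomes that work in the cytosol, and their mRNA levels were followed in mouse epidermal stem cells over 6 times of day and 2 diets. Members were the 1-gene probe sets whose platform symbol follows the Rpl or Rps pattern, together with Rplp0, Rplp1, Rplp2 and Rpsa, with the Rps6 kinase genes taken out. Of 78 matching symbols, 6 were kinases, 1 was a binding protein of Rps19 and none was annotated as a pseudogene, which left 71 members of 17097 genes tested. They comprised 38 large subunit genes, 24 small subunit genes, 3 genes of the stalk and 6 paralogs (Rpl22l1, Rpl36al, Rpl39l, Rpl3l, Rpl7l1 and Rps27l). A gene with several probe sets was represented by the one with the highest mean over all arrays, which applied to 34 members. No measured difference entered this choice.

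The ribosome joins a large and a small subunit, each built from ribosomal RNA and a set of proteins that are needed in matching amounts. Most ribosomal protein mRNAs begin with a cytosine followed by a run of pyrimidines, the 5' terminal oligopyrimidine tract, through which mTORC1 signalling and the RNA-binding protein Larp1 set how strongly they are translated and how stable they are. In the epidermis, basal stem cells divide and supply the layers above, and protein synthesis is kept low in stem cells compared with their progeny. The array measures the mRNA level and not translation or ribosome number.

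All cells came from the epidermis of female mice of the strain C57B6/J, wild type and 15 weeks old, which had received either a high fat diet or its matched control diet for 7 weeks from the age of 8 weeks. Collection took place every 4 h from ZT0 to ZT20, where ZT is zeitgeber time, the hour on the light cycle of the mouse room. On the control diet there were 4, 3, 2, 3, 4 and 4 arrays in that order, 20 in all, and on the high fat diet 3, 4, 2, 4, 4 and 4, 21 in all. The labels number the replicates but do not say that each array is a separate mouse, so p-values measure the spread between arrays, which may be partly technical. Mice killed on 1 day belonged to 1 time point, so the time of day and the day of collection cannot be told apart. The sources used here do not settle whether both diets of a time point were collected on the same day, so at a single time the diet and the day may also not be told apart. How the stem cells were isolated is not given in the sources used here, and in RNA from many cells, fewer cells of a type and less RNA per cell cannot be told apart.

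The deposited values are log2 values from RMA, and all differences below are high fat minus control in log2 units, with the standard error (SE) of the limma fit. P-values were adjusted over all 17097 genes, and a gene was called at an adjusted p under 0.05. The basal keratinocyte genes Krt5 (12.5 to 12.8 over the 41 arrays) and Krt14 (11.8 to 12.8) were bright, as was the suprabasal gene Krt10 (11.8 to 12.2), whereas Cd34, a marker of hair follicle bulge stem cells, lay between 4.51 and 6.09, within the 3.69 to 8.49 of the array's nonspecific control probe sets. The mean of 11 basal keratinocyte markers was 10.88 and 10.98 in both control ZT8 arrays and 10.78 in 1 of the 2 high fat ZT8 arrays, against 11.5 to 11.9 in the other 38 arrays. The same 3 arrays had the highest mean of 16 suprabasal markers, 9.74 to 9.92, and values from ZT8 are given with this in view.

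Members were bright as a group. Their median mean value was 11.8, against 6.90 for all genes tested, in a table whose highest value was 13.5. A mean of at least 12 was found for 28 members, 27 lay between 11 and 12, and 16 lay lower, among them Rpl14 (7.53), Rpl39l (5.84), Rps15a (5.51) and Rpl3l (5.19), the 4 members whose means were within the range of the nonspecific controls and which are therefore not shown to be above background. The other 67 lay above that range. Levels of different probe sets are not compared as amounts of mRNA.

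Averaged over the 71 genes, each centred on its own mean over the 41 arrays, the ribosomal protein level stood apart in 2 of the 12 groups. In the 4 high fat ZT12 arrays it was 0.17, 0.23, 0.23 and 0.28 above the mean, and no other array was higher than 0.11. In both control ZT8 arrays it was 0.16 and 0.27 below it, and no other array was lower than -0.13. Group means at the other control times ran from -0.04 at ZT12 to 0.04 at ZT0. On the high fat diet the group mean was 0.09 at ZT8, 0.23 ± 0.05 (SD, n = 4) at ZT12 and -0.10 ± 0.04 (SD, n = 4) at ZT20. Large and small subunit genes followed the same course, at 0.24 and 0.18 in the high fat ZT12 group and -0.23 and -0.16 in the control ZT8 group.

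**Figure D1:**
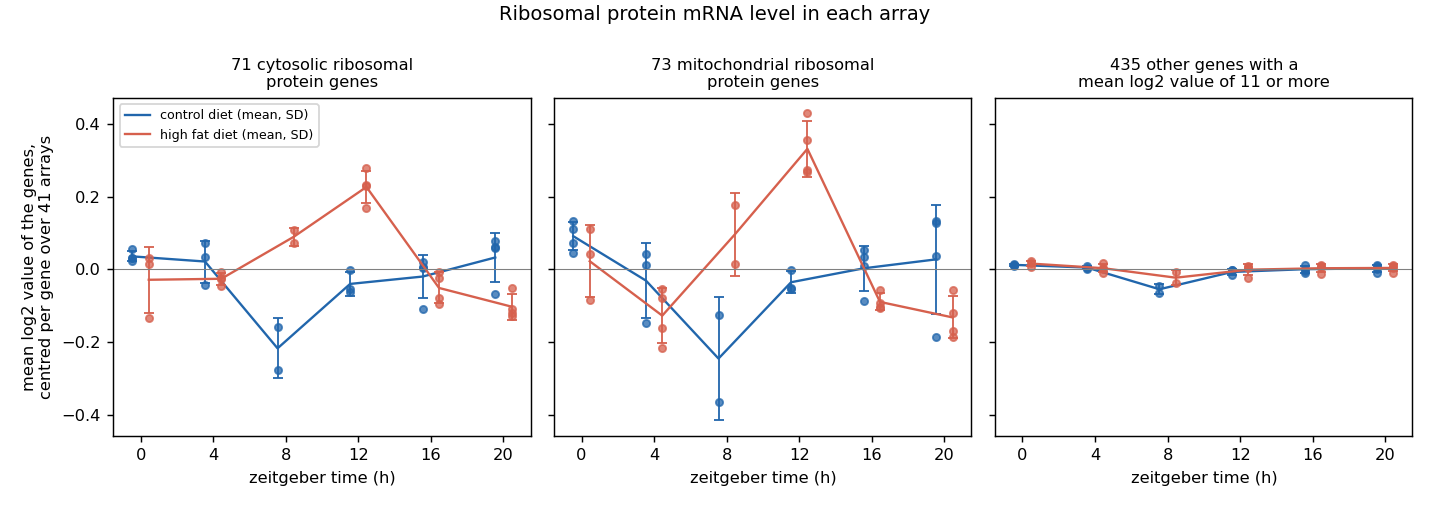
Mean log2 value of 3 gene sets in each array (points), each gene centred on its mean over 41 arrays, against zeitgeber time in hours, with group means (lines) and SD (bars) for the control diet (blue) and the high fat diet (red). The cytosolic ribosomal protein genes reach 0.17 to 0.28 in the high fat ZT12 arrays and fall to -0.16 and -0.27 in the control ZT8 arrays. The 435 other bright genes stay nearer 0 and are lowest in the same control ZT8 arrays, at -0.04 and -0.06.

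At ZT12 nearly the whole set was higher on the high fat diet. Of 71 members, 57 were called higher and 1 lower, where 18.0% of all genes were called, 13.6% higher and 4.44% lower. The median difference over all members was 0.25, a ratio of 1.19, against 0.05 over all genes. Every high fat array lay above every control array of that time in 59 members (20.6% of all genes), and in 28 members (1.22% of all genes) all 4 high fat ZT12 arrays lay above each of the other 37 arrays. After the median of the tested genes was subtracted from each array, 49 members were higher and 1 lower, while the calls over all genes moved from 2327 higher and 759 lower to 1320 higher and 1270 lower.

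Among members above the nonspecific control range, Rpl36a, an X-linked large subunit gene, had the largest difference. It measured 10.20, 10.23, 10.32 and 10.30 on high fat at ZT12 and 9.53, 9.42 and 9.71 on control. Each high fat array exceeded all control arrays, with a difference of 0.70 ± 0.10 (SE, adjusted p = 4.71e-05). Rps27l, a small subunit paralog known as a p53 target, measured 10.99, 10.88, 10.84 and 10.80 against 10.18, 10.23 and 10.26. Its 4 high fat ZT12 arrays were above all other 37 arrays, the highest of which was 10.57, and the difference was 0.66 ± 0.09 (SE, adjusted p = 2.38e-05).

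Rpl14, a large subunit protein, had a single-gene probe set with a mean of 7.53, within the nonspecific control range, and the values that follow are not shown to be above background. It measured 8.46, 8.20, 8.71 and 8.33 in the high fat arrays at ZT12 and 6.87, 7.13 and 7.07 in the control arrays. The groups did not overlap, and the difference was 1.40 ± 0.18 (SE, adjusted p = 1.87e-05). A set of 4 brighter probe sets annotated to Rpl14 and its pseudogene Rpl14-ps1 together, with means of 11.8 to 11.9, differed by 0.29 to 0.31 at ZT12, so the size of the Rpl14 difference depends on the probe set.

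Rps19, the small subunit gene most often mutated in Diamond-Blackfan anaemia, measured 10.43, 10.18, 10.36 and 10.58 against 9.84, 9.59 and 9.95. The difference of 0.59 ± 0.12 (SE, adjusted p = 0.00113) again came without overlap. Rpl7l1, a paralog of Rpl7, measured 10.08, 10.09, 9.86 and 9.65 against 9.55, 9.11 and 9.34, also without overlap, a difference of 0.59 ± 0.17 (SE, adjusted p = 0.0165). Over 48 alternative settings its adjusted p ran from 0.00624 to 0.114.

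The single member called lower was Rpl39l, a paralog of Rpl39 best known from the testis. It measured 5.82, 5.78, 5.70 and 5.98 on high fat and 5.98, 6.05 and 5.99 on control. The groups touched at 5.98, the difference was -0.18 ± 0.06 (SE, adjusted p = 0.0401), and with a level in the range of the nonspecific controls it lost its call in 8 of 47 alternative settings.

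**Figure D2:**
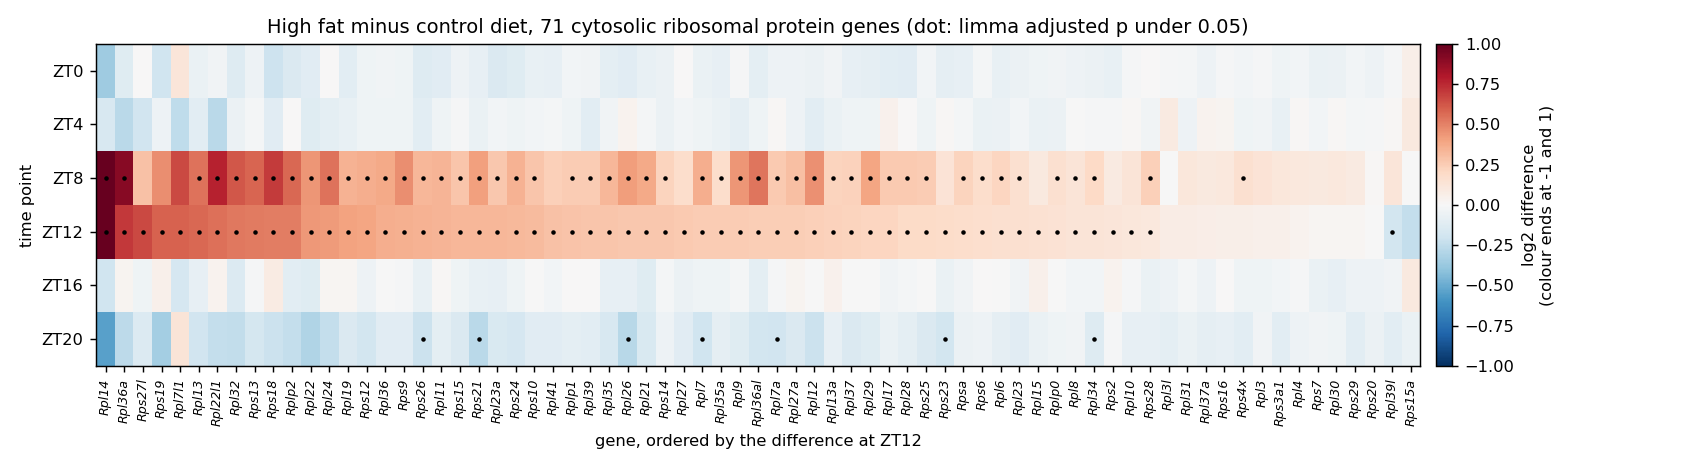
Log2 difference between diets (colour, red higher and blue lower on high fat, ends at -1 and 1) for the 71 members (columns, ordered by the ZT12 difference) at 6 zeitgeber times (rows), with a dot where the limma adjusted p was under 0.05. Dots fill the ZT8 and ZT12 rows, with 49 and 58 members, 7 stand at ZT20, and none at ZT0, ZT4 or ZT16.

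The remaining members differed by smaller steps at ZT12, and the step followed the brightness of the probe set. All 13 members with a mean of 6 to 11 were called higher, with a median difference of 0.55. All 27 with a mean of 11 to 12 were called higher too, with a median of 0.27, whereas of the 28 at 12 or above, 17 were called and the median was 0.12. The spread over all 41 arrays narrowed in the same order, from a median SD of 0.25 to 0.13 and 0.06. The 13 members without a call at ZT12 were Rpl3l and Rps15a, which were dim, and 11 members at or above 12, namely Rpl3, Rpl4, Rpl30, Rpl31, Rpl37a, Rps3a1, Rps4x, Rps7, Rps16, Rps20 and Rps29. Whether the top of the scale compressed their differences was not tested.

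Other probe sets of the same genes gave a view that the choice of the brightest one leaves out. Among 63 further probe sets of 34 members, 38 were called higher and 1 lower at ZT12. Among the 39 of these with a mean of at least 9 it was 32 higher and none lower. Of the 24 with a mean below 9, 6 were called higher and 1 lower, with a median difference of 0.05. The share of all 1-gene probe sets called in the fit of single probe sets is not shown here. Rps6, the small subunit protein that S6 kinase phosphorylates, shows the range. Its brightest probe set, with a mean of 12.9, differed by 0.17 ± 0.04 (SE, adjusted p = 0.00129), another with a mean of 8.88 differed by 0.65 (adjusted p = 0.000406), and the dimmest with a mean of 5.45 differed by -0.41 (adjusted p = 0.0267). Rpl37a and Rps29, without a call by their brightest probe sets, were called higher by another one, with differences of 0.17 and 0.20. Rps20 was not: its brightest probe set differed by -0.00 ± 0.03 and another, at 6.23, by 0.01.

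**Figure D3:**
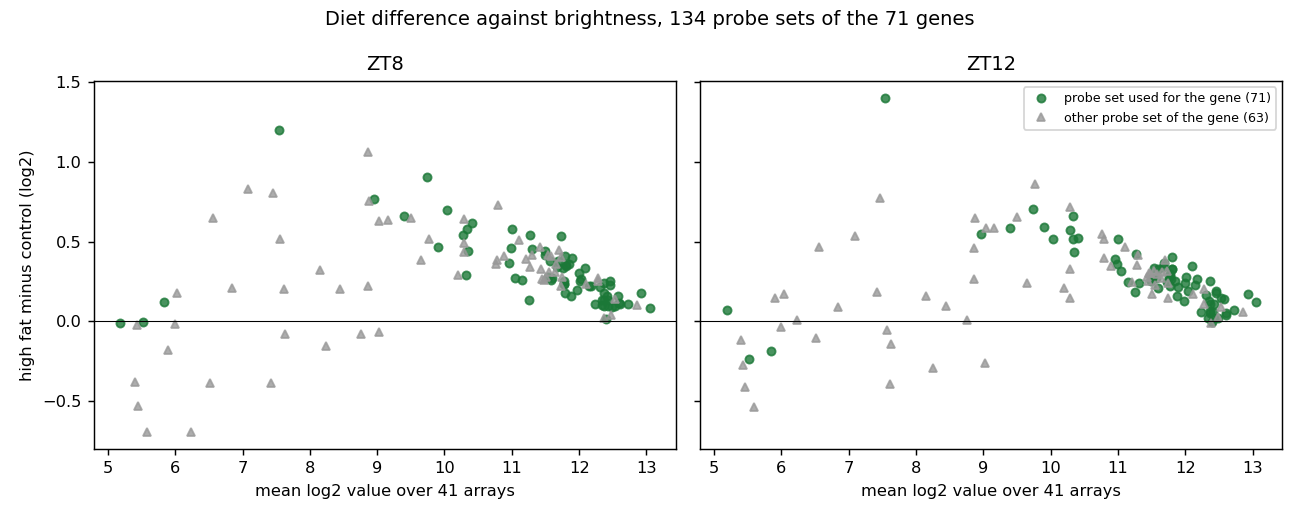
High fat minus control difference (log2) at ZT8 and ZT12 against the mean log2 value over 41 arrays for the 134 probe sets of the 71 members, with the probe set used for each gene (green circles) and the other 63 (grey triangles). Above a mean of 9 the differences lie mostly above 0 and shrink towards the top of the scale, and below 9 they scatter on both sides.

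At ZT8 the set was higher on high fat as well. Of 71 members, 49 were called higher and none lower, where 8.34% of all genes were called and 5.42% were called higher, and 48 of the 49 were also called higher at ZT12. The median difference was 0.26, against 0.03 over all genes. Every high fat array exceeded every control array in 68 members, a pattern that with 2 arrays a diet was met by 28.0% of all genes. Leaving out the second control ZT8 array left 8 calls, leaving out either high fat ZT8 array left 32 or 31, and a fit to the 4 ZT8 arrays alone gave none.

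Rpl36a measured 10.00 and 9.87 on high fat at ZT8 and 9.25 and 8.81 on control, a difference of 0.91 ± 0.14 (SE, adjusted p = 0.000102), and both control values were the lowest of the 41 arrays for this gene. Rpl22l1, the paralog of Rpl22, measured 9.04 and 9.39 against 8.65 and 8.25, a difference of 0.77 ± 0.14 (SE, adjusted p = 0.000866), with a single control array from another time, at 8.59, below the higher of the control ZT8 values. The dim Rpl14 probe set measured 7.52 and 7.77 on high fat and 6.72 and 6.17 on control, a difference of 1.20 ± 0.24 (SE, adjusted p = 0.00192). Both control values were the lowest of the 41 arrays for this gene.

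Against the mean over all arrays, the member mean was -0.22 in the control ZT8 group and 0.09 in the high fat ZT8 group. Both control ZT8 arrays were below all other control arrays in 29 members (10.1% of all genes) and below all other 39 arrays in 18 (5.7% of all genes), and the lowest control group mean fell at ZT8 in 64 members (36.0% of all genes). These are 2 of the 3 arrays with few basal and many suprabasal transcripts. The remaining such array, high fat ZT8 replicate 2, had the lowest basal marker mean of all, 10.8, and a member mean of 0.11, while high fat ZT8 replicate 1, with a basal marker mean of 11.6, had a member mean of 0.07. Of 16 suprabasal markers, 6 were called lower on high fat at ZT8 and none higher, with a median difference of -0.29. Over all genes, 8.34% were called at ZT8 and 5.42% were called higher, while 500 of 17097 were called lower. The suprabasal marker mean was 9.09 and 9.92 in high fat ZT8 replicates 1 and 2 and 9.91 and 9.74 in the control ones, so replicate 2 was not lower. The mean of 12 leukocyte and Langerhans cell markers was 6.69 and 6.47 in the control ZT8 arrays, the lowest of the 41, and 6.85 in both high fat ZT8 arrays. Of the 12, 3 were called higher on high fat and none lower. These leukocyte means lay within the range of the nonspecific controls. Control ZT8 replicate 2 also had the lowest median of the tested genes, 6.80. The part of these measures in the ZT8 difference was not tested.

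At ZT20 the sign was the opposite. There, 7 members were called lower on high fat and none higher, where 0.702% of all genes were called and 0.392% were called lower. At an unadjusted p under 0.05, 46 members, the 7 included, were lower, as were 1259 of all 17097 genes. The median difference was -0.11, and 70 of 71 differences were negative, against a median of 0.00 over all genes. In 25 members every high fat array lay below every control array (3.59% of all genes). Rpl26, a large subunit protein that also binds p53 mRNA, measured 11.35, 11.34, 11.25 and 11.31 on high fat and 11.65, 11.45, 11.59 and 11.67 on control. Its high fat arrays all lay below the control arrays, with a difference of -0.28 ± 0.06 (SE, adjusted p = 0.0226). Rps21, of the small subunit, measured 11.71, 11.56, 11.62 and 11.64 against 11.88, 11.84, 12.004 and 11.89, a difference of -0.27 ± 0.05 (SE, adjusted p = 0.0142). The other 5 were Rpl7, Rpl7a, Rpl34, Rps23 and Rps26, and all 7 differences ran from -0.28 to -0.13. A fit to the 8 ZT20 arrays alone called none, and leaving out 1 array moved the count between 0 and 16.

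No member was called at ZT0, ZT4 or ZT16, where 0.854%, 0.386% and 1.24% of all genes were called by limma. Unadjusted p-values under 0.05 numbered 7, 4 and 4 members, all lower on high fat. Over all 17097 genes they numbered 2198, 2039 and 2750, of which 944, 1035 and 1480 were lower. At ZT4 and ZT16 the share of members that was lower did not exceed that of all genes. The median differences of the members were -0.06, -0.04 and -0.03. Every high fat array lay below every control array in 13, 10 and 2 members at these times (5.69%, 5.16% and 4.64% of all genes).

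Over the 6 times together few members kept a diet difference. The equally weighted mean of the 6 differences was called higher for 6 members and lower for none, where 7.59% of all genes were called and 5.52% were called higher, with a median of 0.04. The share, 6 of 71, is near that of all genes, and leaving out 1 array moved the count from 1 (without control ZT8 replicate 2) to 17 (without high fat ZT0 replicate 1). The 6 were Rpl36a at 0.16 ± 0.04 (SE, adjusted p = 0.0205), Rps13, Rpl13, Rps9, Rpl36 and Rpl11, and the last 5 differed by 0.07 to 0.14. Without the ZT8 and ZT12 arrays the median was -0.06, with 7 members called lower and none higher, and Rpl36a stood at -0.16. The share of all genes called in that fit is not shown here, so these 7 calls are not set against a background.

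The diet difference changed with time in 59 members (19.0% of all genes). The smallest adjusted p, 1.03e-05 each, belonged to Rpl36a, its paralog Rpl36al and Rps21. Rpl36al is the intron-less autosomal counterpart of Rpl36a, and it measured 11.98, 11.93, 12.04 and 12.01 on high fat at ZT12 against 11.74, 11.75 and 11.74 on control. It also measured 11.79 and 11.94 against 11.39 and 11.28 at ZT8, so the groups were apart at both times, and its other differences ran from -0.18 to -0.04. With the ZT8 and ZT12 arrays left out, no member was called for a change of its diet difference with time, in a fit with fewer arrays and times.

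**Figure D4:**
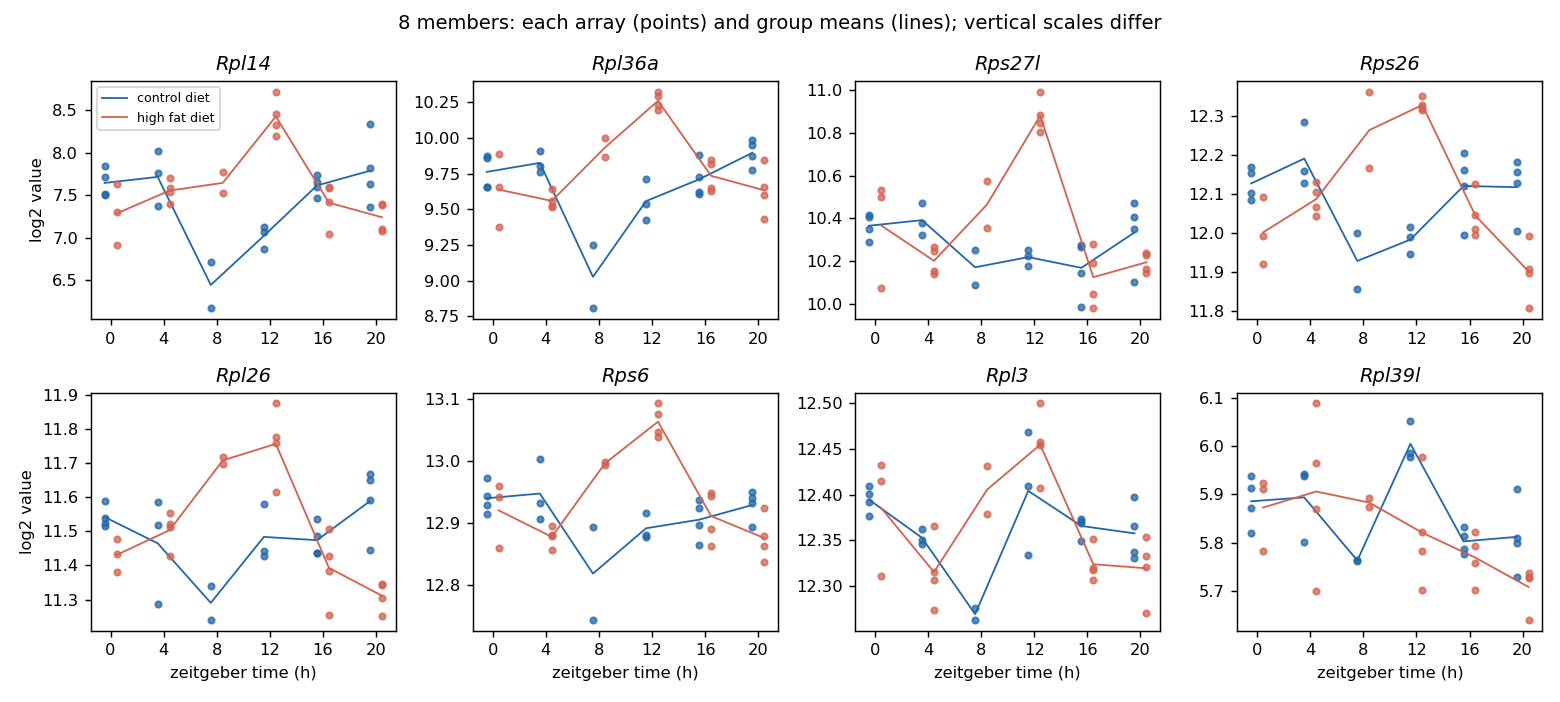
Log2 values of 8 members in each array (points) against zeitgeber time in hours, with group means (lines) for the control diet (blue) and the high fat diet (red) and a vertical scale for each gene. Rpl14, Rpl36a, Rps27l, Rps26, Rpl26 and Rps6 are highest in the high fat ZT12 group, Rpl3 differs by 0.05 there without a call, and Rpl39l is lower.

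Within each diet the members varied over the day. A difference between the 6 times was called for 54 members on control (43.9% of all genes) and for 67 on high fat (41.5% of all genes). On control the smallest adjusted p belonged to Rpl36al (3.71e-06), Rpl36a (1.60e-05) and Rpl21 (1.80e-05), and without the ZT8 arrays 6 members were called. On high fat it belonged to Rps27l (3.53e-07), Rpl23a (3.70e-07) and Rpl23 (8.05e-07). Rpl23 measured 12.05, 12.04, 12.02 and 12.04 at ZT12, and its other high fat arrays lay between 11.72 and 11.97. The highest high fat group mean fell at ZT12 in 64 members (31.1% of all genes) and the lowest at ZT20 in 52 (17.5% of all genes).

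A 24 h cosine was called for 54 members on the high fat diet (11.2% of all genes) and for 6 on the control diet (6.66% of all genes). All 54 fitted peaks on high fat lay between ZT8.50 and ZT12.0, with a median of ZT10.0 and a median amplitude, from mean to peak, of 0.14. The share on control, 8.45% of members, is near that of all genes. These 6, Rpl14, Rpl36a, Rps21, Rpl19, Rpl7 and Rpl34, peaked between ZT20.5 and ZT22.3 and were called on high fat as well. The cosine differed between the diets in 56 members (3.58% of all genes).

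Among members called on high fat and above the nonspecific control range, the largest amplitudes were those of Rpl32 at 0.34, Rps19 at 0.33, Rps18 at 0.31 and Rpl36a at 0.31. Among those called on control they were Rpl36a at 0.27, Rps21 at 0.13, Rpl19 at 0.11 and Rpl7 at 0.11. The Rpl14 probe set, within the nonspecific control range, gave 0.51 ± 0.11 on high fat with a peak at ZT10.4 (adjusted p = 0.00391) and 0.51 ± 0.11 on control with a peak at ZT21.4 (adjusted p = 0.00809), again not shown to be above background. Rps26, a small subunit protein near the channel through which mRNA leaves, Rpl19 and Rpl26 had the smallest adjusted p for the difference, 0.000199 each.

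Rps26 shows the pattern behind these fits. On high fat it measured 12.33, 12.32, 12.35 and 12.31 at ZT12 and 11.99, 11.91, 11.81 and 11.90 at ZT20, which left a gap between the groups. On control its mean was 11.93 ± 0.10 (SD, n = 2) at ZT8 and 12.12 ± 0.08 (SD, n = 4) at ZT20, and the higher ZT8 array lay just below the lowest ZT20 array. Its amplitude was 0.21 ± 0.03 on high fat (adjusted p = 1.24e-05) and 0.08 ± 0.03 on control (adjusted p = 0.135).

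The cosine calls rest on few groups. With each diet and time group as a random block, 4 members were called on high fat, none on control and none for the difference. Without the ZT12 arrays the counts were 6, 22 and 3, without the ZT8 arrays 54, 0 and 41, and without both 2, 1 and 0, in the same order.

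**Figure D5:**
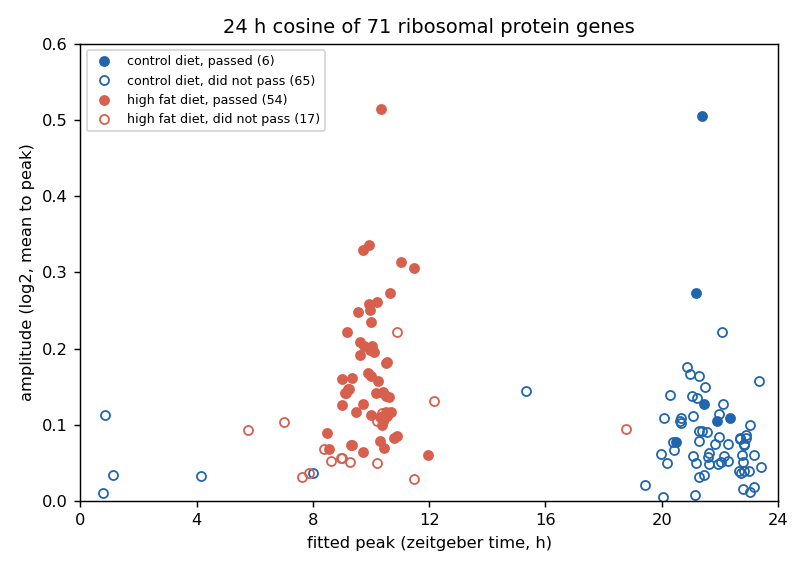
Amplitude (log2, mean to peak) against fitted peak (zeitgeber time in hours) of a 24 h cosine for the 71 members in the control diet (blue) and the high fat diet (red), filled where the adjusted p was under 0.05. The 54 filled high fat points gather between ZT8.50 and ZT12.0 and the 6 filled control points between ZT20.5 and ZT22.3.

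The stalk proteins, which recruit elongation factors to the ribosome, were all called higher at ZT8 and ZT12. Rplp2 moved most, from 10.90, 10.87 and 10.98 on control at ZT12 to 11.54, 11.20, 11.48 and 11.51 on high fat, without overlap, a difference of 0.51 ± 0.09 (SE, adjusted p = 0.000184). Rplp1 differed by 0.29 ± 0.06 and Rplp0, the base of the stalk, by 0.14 ± 0.04 at ZT12. Rpsa, the small subunit protein also called the laminin receptor, differed by 0.18 ± 0.04 (adjusted p = 0.00522).

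Rpl11, which with Rpl5 and 5S RNA binds Mdm2 when ribosome assembly fails, differed by 0.34 ± 0.05 at ZT12 (SE, adjusted p = 4.71e-05) and by 0.34 ± 0.07 at ZT8. Its high fat ZT12 arrays, at 12.05, 11.92, 11.94 and 11.99, were above all other 37 arrays. Rpl10, which joins the large subunit late in its assembly, differed by 0.11 ± 0.03 at ZT12 (adjusted p = 0.021) and missed the threshold at ZT8 (adjusted p = 0.0619). Rpl13a, which also takes part in silencing of inflammatory mRNAs, differed by 0.23 ± 0.05 at ZT12 and 0.22 ± 0.07 at ZT8, both called.

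Paralogs and their parent genes were set side by side. Rpl22 and Rpl22l1 differed by 0.44 ± 0.08 and 0.55 ± 0.11 at ZT12, and Rpl36a and Rpl36al by 0.70 ± 0.10 and 0.25 ± 0.05, all called higher. Rpl7 differed by 0.25 ± 0.05 and Rpl7l1 by 0.59 ± 0.17. Rpl39 rose by 0.28 ± 0.06 (adjusted p = 0.00173), whereas Rpl39l was the member called lower. Rpl3 and its muscle paralog Rpl3l differed by 0.05 ± 0.03 and 0.07 ± 0.06, neither called. Differences between a paralog and its parent were not tested, and Rps27, Rpl38 and Rps27a were not analysed here.

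Promoters of the members were compared because the genes moved together. RefSeq windows of GRCm38.p6, 300 bases around each annotated start, matched 57 of 71 members with 68 windows. CTCTTTC on the sense strand, a pyrimidine run of the kind that starts these mRNAs, was in 13 of 68 member windows (19.1%) and in 3.99% of all 32851. CCGGAAG, a core that ETS family factors bind, searched on both strands, was in 38.2% against 8.86%. AAGATGG, a part of the YY1 motif, was in 16.2% against 6.34%, and CACGTG, the E-box that Clock, Bmal1 and Myc bind, in 11.8% against 7.15%, both on either strand. CCGGAAG and AAGATGG can share the letters AAG, so a single stretch can match both. The 120 bases from 90 before the start to its first 30 are printed below for 7 members, with matches to these 4 motifs or their reverse complements in capitals. They are the 3 with the largest ZT12 differences (Rpl14, Rpl36a and Rps27l), the 2 with the largest falls at ZT20 (Rpl26 and Rps21) and the 3 with the smallest adjusted p for the cosine difference (Rps26, Rpl19 and again Rpl26). Of all 68 member stretches of this length, 42 held none of the 4 motifs and 26 (38.2%) held at least 1, against 13% of all windows.
Rpl26: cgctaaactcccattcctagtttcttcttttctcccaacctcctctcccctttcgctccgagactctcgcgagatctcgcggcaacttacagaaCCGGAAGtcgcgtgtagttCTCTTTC
Rps26: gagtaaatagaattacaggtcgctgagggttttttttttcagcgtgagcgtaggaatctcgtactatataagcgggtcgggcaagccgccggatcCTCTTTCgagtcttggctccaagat
Rpl19: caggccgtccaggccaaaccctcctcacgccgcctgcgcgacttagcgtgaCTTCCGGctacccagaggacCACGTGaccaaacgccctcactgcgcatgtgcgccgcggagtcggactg
Rps21: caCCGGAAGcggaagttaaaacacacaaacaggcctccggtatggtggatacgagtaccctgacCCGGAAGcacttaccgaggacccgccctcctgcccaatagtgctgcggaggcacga
Rps27l: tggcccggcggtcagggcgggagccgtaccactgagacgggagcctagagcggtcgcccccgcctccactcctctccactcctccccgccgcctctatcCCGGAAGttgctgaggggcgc
Rpl14: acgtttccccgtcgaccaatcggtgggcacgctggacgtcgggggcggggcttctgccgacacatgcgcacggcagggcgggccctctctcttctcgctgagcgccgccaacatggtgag
Rpl36a: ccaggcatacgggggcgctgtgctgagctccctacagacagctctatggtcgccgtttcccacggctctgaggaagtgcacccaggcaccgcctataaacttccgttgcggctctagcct
They lie at chr11:68901476-68901595 on the plus strand, chr10:128626477-128626596 on the minus strand, chr11:98026620-98026739 on the plus strand, chr2:180257289-180257408 on the plus strand, chr9:66945996-66946115 on the plus strand, chr9:120571427-120571546 on the plus strand and chrX:134585564-134585683 on the plus strand. For Rpl19, Rps21 and Rps27l, which have 2 annotated starts, the first is shown, and the stretch at the second holds none of the 4 motifs. Rpl26 has CCGGAAG just ahead of CTCTTTC, Rps21 has CCGGAAG at 2 places, Rpl19 has it in reverse beside the E-box, and the Rpl14 and Rpl36a stretches hold none of the 4. The stretches of Rpl36al, Rps19, Rps6, Rplp2, Rpl22, Rpl22l1, Rpl39l and Rps13 hold none either. A match describes the letters only.

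Of the ribosomal proteins outside the name pattern, Fau, whose product is cleaved to a small subunit protein, was measured and rose on high fat at ZT12 by 0.43 ± 0.08 (SE, adjusted p = 0.000367) and at ZT8 by 0.39 ± 0.10 (adjusted p = 0.0134). It was also called for the cosine on high fat and for its difference between diets.

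Translation initiation factors, which bring the ribosome to the mRNA, were examined as a list. Of 26 measured, 9 were called higher and 1 lower at ZT12, with a median difference of 0.17, and 9 higher and none lower at ZT8, against 13.6% of all genes higher and 4.44% lower at ZT12 and 5.42% higher at ZT8. Of the 10 called at ZT12, 7 were subunits of eIF3, the complex that brings mRNA to the small subunit, of which 10 were measured; this grouping was made after the values were seen. Eif3l differed by 0.52 ± 0.09, Eif3e by 0.60 ± 0.13, Eif3i by 0.42 ± 0.10 and Eif3h by 0.32 ± 0.08 at ZT12. Eif5, which triggers GTP hydrolysis before the subunits join, was the one called lower, at -0.46 ± 0.15. Of 7 elongation genes, Eef1b2 (0.27 ± 0.04) and Eef1g (0.20 ± 0.05) were called higher at ZT12, while Eef1a1 differed by -0.00 ± 0.03.

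Genes for making ribosomes were called in both directions. Of 27 ribosome assembly genes, 6 were called higher and 1 lower at ZT12, with a median of 0.14, where 18.0% of all genes were called, and 1 was called at ZT8, where 8.34% of all genes were. Nhp2 of the H/ACA particles that modify ribosomal RNA differed by 0.59 ± 0.11, Eif6, which keeps the subunits apart, by 0.29 ± 0.06, and Nip7 by 0.67 ± 0.16, whereas Ltv1, an export factor of the small subunit, was called lower at -0.42 ± 0.15. Of 11 genes of RNA polymerase I and its regulators, Polr1c (0.35 ± 0.09) and Polr1d (0.41 ± 0.12) were called higher and Taf1d (-0.65 ± 0.19) and Myc (-0.32 ± 0.11) lower at ZT12, against the same 18.0% of all genes. Of 11 genes of mTORC1 control, Eif4ebp1, a repressor of cap-dependent initiation, was called higher at 0.41 ± 0.11 and Mlst8 at 0.34 ± 0.12, and Larp1 differed by -0.28 ± 0.12 without a call (adjusted p = 0.0972). In the short list around p53, with 3 genes measured, Zfp622 was called higher at ZT12 and Mdm2 lower at ZT8 (-0.73 ± 0.17).

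Mitochondrial ribosomal protein genes, which serve the separate ribosomes of mitochondria, were also highest in the high fat ZT12 group (0.33) and lowest in the control ZT8 group (-0.24). Of 73, 36 were called higher and none lower at ZT12, with a median difference of 0.39, and 16 higher at ZT8. Over all genes, 13.6% were called higher and 4.44% lower at ZT12, and 5.42% higher at ZT8. A cosine was called for 20 on high fat and 8 on control, and its difference between diets for 17, where the shares of all genes were 11.2%, 6.66% and 3.58%. The centred mean of these genes was 0.27 to 0.43 in the high fat ZT12 arrays. The 435 other genes with a mean of 11 or more did not share a direction. At ZT12, 85 were called higher and 67 lower, with a median of 0.01, and at ZT8, 56 higher and 29 lower. Their centred mean was lowest in the control ZT8 arrays, at -0.04 and -0.06, followed by high fat ZT8 replicate 2 at -0.04. The difference between these gene sets and the members was not tested.

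Several other measures were compared between the diets at ZT12, where 13.6% of all genes were called higher and 4.44% lower. Of 12 leukocyte and Langerhans cell markers, 7 were called higher and 1 lower on high fat, their mean level being 7.06 to 7.29 in the high fat and 6.87 to 6.97 in the control arrays, with Ptprc between 4.08 and 4.74 over all arrays. Of 11 hair follicle bulge markers, 4 were higher and 1 lower, with mean levels of 7.56 to 7.89 and 7.32 to 7.40. The mean levels of the leukocyte and bulge lists lay within the 3.69 to 8.49 of the nonspecific controls. As list means they are not shown to be above background. Of 16 suprabasal markers, 4 were higher, with mean levels of 9.05 to 9.22 and 8.86 to 9.05. Of 11 basal markers, 1 was higher, with overlapping mean levels of 11.6 to 11.8 and 11.5 to 11.8. The signal of the 3' minus the 5' control probe set of a gene is a measure of RNA integrity. For Gapdh it was -0.30 to -0.24 in the high fat and -0.33 to -0.29 in the control ZT12 arrays. For Actb it was -0.81 to -0.70 and -0.75 to -0.71, and for both genes the ranges overlapped. The median of the tested genes averaged 6.95 in the high fat ZT12 arrays and 6.88 in the control ones. Their part in the difference of the ribosomal protein genes was not tested.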

How the data were processed

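RNA of 41 samples was extracted with TRizol, amplified from 25 ng in 17 cycles of WTA2 and labelled with biotin as 8 µg of cDNA for an Affymetrix array, per the labels' protocols. The authors deposited log2 values that the submitters' processing notes credit to RMA; its version and any batch step were not given in the sources used here. No scanner files were used, so signal over background is unknown, and precision is limited by how many arrays a group has. Among 45141 probe sets, 28898 have 1 gene, 551 several and 15692 none; symbols come from the platform annotation, which can be old.

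Models were fitted in R 4.3.3, tables being read by data.table (version 1.17.8), with limma 3.58.1 on the deposited log2 values with no filter. A mean for each of 12 groups (29 residual degrees of freedom) gave the diet contrast at each time, their equally weighted mean, an F test of 5 coefficients for diet by time, and the time tests in each diet. A 24 h cosine with its own mean per diet had 35 residual degrees of freedom. P-values were adjusted by Benjamini and Hochberg over 17097 genes. Probe sets of members were also fitted singly among all 1-gene probe sets, and those with several genes in a further fit. The scripts were tested on simulated data; figures used Python 3.11.15, pandas 2.3.3 and matplotlib 3.10.9.

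Named members were the largest called changes of each comparison (5 each way at ZT12 and for the average, 3 at ZT8, 2 at the other times, 5 amplitudes per diet), the 3 smallest adjusted p of each F test, the stalk, Rpsa, paralogs with parents, and genes with known extra roles; up to 4 genes a list were named from the pathways, with Eef1a1, Eif5, Larp1 and Mdm2 added for their role. The members and all lists were chosen with earlier results of these data known. The alternatives tried were averaging all probe sets of a gene, a minimum mean of 6, 2 scalings, trended and robust eBayes, a replicate block, a random block, fits to 1 time point, and leaving out arrays or times. Replicate numbers do not pair the arrays: over 198 same-number pairs the correlation of deviations from group means ran from -0.36 to 0.31, with a median of -0.03.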

Additional observations from a re-analysis of the deposited data

Results flagged for a closer look

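Of 56 group values examined for 8 items (the member mean and 7 named members), 6 had an array far from its group by Dixon's ratio, and chance alone flags about 1 group in 20. The member mean was low in control ZT16 replicate 4 (-0.11) and control ZT20 replicate 2 (-0.0669). Rps19 was low in the same control ZT16 replicate 4 (9.41), and Rpl7l1 in the same control ZT20 replicate 2 (8.77). High fat ZT20 replicate 1 was high for Rpl22l1 (9.18) and low for Rpl39l (5.64).

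The diet difference changed with time in 59 members by the F test of diet by time, with an adjusted p of 1.03e-05 for each of Rpl36a, Rpl36al and Rps21. The 24 h cosine differed between the diets in 56 members, with an adjusted p of 0.000199 for each of Rps26, Rpl19 and Rpl26. With each diet and time group as a random block, no member was called for this difference, and the adjusted p of these 3 was 0.173 to 0.2. Over all alternatives it reached 0.72, 0.616 and 0.207.

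Rpl5 and Rps3 are on probe sets with several genes only and are not among the 71 members. At ZT12 a probe set of Rpl5 and Dipk1a with a mean of 12.6 was higher on high fat by 0.10 ± 0.03 (SE, adjusted p = 0.0477) and another with a mean of 8.63 by 0.61 ± 0.14 (adjusted p = 0.00306). A probe set of Rps3 and Snord15b with a mean of 9.57 was higher by 0.40 ± 0.14 (adjusted p = 0.0447). A further probe set of each pair was not called at ZT12. That of Rpl5 and Dipk1a, with a mean of 7.14, differed by 0.15 ± 0.24 (adjusted p = 0.716). That of Rps3 and Snord15b, with a mean of 6.71, differed by 0.20 ± 0.10 (adjusted p = 0.18). These probe sets were examined after the data had been seen.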

How the results depend on the processing

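Counts are members called, from the main count to the alternative. Leaving out 1 array at a time gave 50 to 58 for diet at ZT12, 8 to 51 at ZT8, 0 to 16 at ZT20, none at ZT0, ZT4 and ZT16, 1 to 17 for the average, 58 to 59 for diet by time, 18 to 55 and 66 to 68 for time in control and high fat, 0 to 13 and 44 to 59 for the cosine in control and high fat, and 47 to 58 for its difference. The arrays behind the wide ranges were control ZT8 replicate 2 (8 at ZT8, 1 for the average, 18 for time in control, 0 for the control cosine), control ZT8 replicate 1 (16 for the average, 1 for the control cosine), either high fat ZT8 array (32 and 31 at ZT8), high fat ZT0 replicate 1 (17 for the average) and 10 arrays for ZT20, where control ZT20 replicate 3 and high fat ZT20 replicate 2 each left 0 and control ZT20 replicate 2 left 16. The control cosine also moved to 13, 2, 2 and 10 without control ZT12 replicate 3, ZT20 replicates 3 and 4 and ZT4 replicate 2.

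Fits to 1 time point gave 37 at ZT12 and 0 at ZT8 and ZT20; the cause was not tested beyond their fewer arrays. The random block (correlation 0.37) gave 0, 4 and 0 for the cosine in control, high fat and their difference. Without ZT12 these were 22, 6 and 3, the average 0 and time in high fat 28. Without ZT8 the control cosine and the average were 0 and time in control 6. Without both, chosen after the data were seen, the cosine counts were 1, 2 and 0, time 5 and 3, and diet by time 0. The average was then called for 7, all lower, in a fit whose share over all genes is not shown here. Its median difference was -0.06, with reversed signs for Rpl36a (-0.16), Rps13 (-0.0637), Rpl13 (-0.11), Rps9 (-0.0526) and Rpl36 (-0.0471). Subtracting the tested-gene median gave 13 at ZT20, 35 for time in control and a ZT12 median of 0.18. Averaging all probe sets of a gene gave 1 at ZT0, 13 at ZT20 and 10 for the control cosine. With the replicate number as a block, ZT20 gave 3 and ZT12 58, and no other count moved by 1.5 times; the numbers do not pair the arrays.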
